A study of Mus musculus with 9 samples.

Results

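Arginine sits at a branch point of macrophage metabolism, and 10 of its genes are described here out of 47729 gene identifiers measured. They were chosen by symbol, with Ensembl identifiers matched to GENCODE mouse release M21: the arginases Arg1 and Arg2, the inducible nitric oxide synthase Nos2, the cationic amino acid transporters Slc7a1 and Slc7a2, the polyamine enzymes Odc1, Srm and Sms, and the arginine-making enzymes Ass1 and Asl. No cutoff on their values was used, but earlier results of these data were known when they were chosen. RNA-seq was run on sorted mouse peritoneal macrophages, with 3 libraries in each of 3 groups, 9 in all. All groups carried the genotype Cx3cr1CreERT2-IRES-EYFP/+ Rosa26-stopfl-tdTomato/+, in which the Cx3cr1 locus drives a tamoxifen-inducible Cre recombinase and a Cre-dependent tdTomato marks the cells. All mice, the resident group included, received intraperitoneal IL-4 complexes (5 µg IL-4 and 25 µg anti-IL-4) on alternate days, beginning 4 days ahead of harvest, so no group is free of IL-4. Monocyte-derived macrophages were collected on day 4 after thioglycollate (2 ml), which irritates the cavity and draws in blood monocytes. For the converted group, mice had the same 2 ml dose and were fed tamoxifen over 10 weeks. For resident macrophages the labels give no group treatment. The sources used here do not give ages, sort gates or any pooling of animals. They also do not say that each library is a different mouse, so the spread behind every p-value may be technical.

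As background, arginine enters macrophages through cationic amino acid transporters and is then split by arginase into ornithine and urea or oxidised by nitric oxide synthase into nitric oxide and citrulline. Ornithine feeds the polyamines: ornithine decarboxylase (Odc1) makes putrescine, spermidine synthase (Srm) makes spermidine and spermine synthase (Sms) makes spermine. Citrulline is turned back into arginine by argininosuccinate synthase (Ass1) and argininosuccinate lyase (Asl). In mouse macrophages IL-4 is known to induce Arg1, while interferon-gamma and bacterial products are known to induce Nos2.

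The libraries held 15220884 to 20496258 reads in genes. Levels are given as CPM, counts scaled to a common library size after TMM normalisation. Of an 8-gene macrophage list, Csf1r, the receptor for macrophage colony-stimulating factor, was level across libraries, at 1053 to 1159 CPM. Not all of that list was level. Adgre1 had its lowest mean, 343 CPM, in the monocyte-derived group, beside 3077 for converted and 2978 for resident libraries. Fcgr1 went the other way. Each monocyte-derived library held at least 6.15 CPM of it and no other library more than 0.683, with 2 reads in converted library 1. A list of 6 large cavity macrophage genes summed to 24.8 to 88.3 CPM in monocyte-derived libraries, against 4370 to 5322 (converted) and 4849 to 5139 (resident). Ccr2, the receptor of recruited monocytes, had 463.5 to 1345 CPM in monocyte-derived libraries and at most 11.7 elsewhere. Transcripts of other cells moved with the groups. A 10-gene neutrophil list summed to 57.8 to 100.3 CPM in the monocyte-derived group, 10.5 to 20.4 in the converted group, where 3 of its genes including S100a9 had no read, and 17.7 to 18.6 in the resident group, where 2 had none. Most of each mean sum was Csf3r, with means of 51.0, 12.6 and 15.9 CPM. Ly6g (0.071, 0.542 and 0.354) and Elane (0.286, 0.461 and 0.682) of that list were lowest in the monocyte-derived group, on at most 17 reads a library. A 12-gene B-cell list summed to 38.4 to 93.9, 95.9 to 216.7 and 1345 to 1732 CPM in the same order, with no gene at 0 in any group. An 8-gene NK-cell list summed to 20.6 to 130.4, 1.79 to 3.10 and 17.8 to 28.8 CPM, and its highest sum was in monocyte-derived library 3, which also held the most Arg2 and Nos2 reads. A 7-gene dendritic cell list summed to 18.1 to 68.6, 21.6 to 81.7 and 174.2 to 189.2 CPM. Most of its resident sum was Cd209a, with means of 20.1, 48.6 and 172 CPM. Flt3 (8.24, 0.258 and 0.532) and Zbtb46 (6.91, 2.90 and 4.45) of that list were highest in the monocyte-derived group. Summed over 9 stress and immediate early genes, levels were 1290 to 1748, 1010 to 1440 and 2701 to 2748 CPM. An 11-gene cell cycle list summed to 367.7 to 984.9, 2261 to 3388 and 1671 to 1837 CPM. The part of these cells, of stress genes and of proliferation in the results below was not tested. In bulk RNA, fewer cells of a type and less RNA per cell cannot be told apart. Monocyte-derived libraries were the most spread: the chi-square per degree of freedom between libraries of a group was 49.5 to 164.7, against 25.7 to 36.9 in converted and 8.30 to 12.5 in resident ones. Monocyte-derived library 1 had the highest Slc7a1, Odc1, Srm and Ass1 of its group and the lowest Slc7a2 and Sms, so values without it are given where they matter.

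Against monocyte-derived libraries, the carrier Slc7a2 was higher and the carrier Slc7a1, spermine synthase Sms and argininosuccinate lyase Asl were lower in both other groups, while Arg1 was high in every library. With edgeR's quasi-likelihood test, adjusted over the 13223 genes tested and called at an adjusted p under 0.05, 1 member was higher and 4 were lower in converted than in monocyte-derived libraries, of 9 tested. That comparison called 50.7% of all genes (25.8% higher, 24.9% lower), so the members' share of 55.6% was near the background. In resident against monocyte-derived libraries 2 were higher and 5 lower of 9, a share of 77.8% beside a background of 50.7% (25.7% higher, 24.9% lower). Between converted and resident libraries 0 of 9 were called, beside a background of 6.07% (1.82% higher, 4.26% lower). Libraries of the groups did not overlap for 4 of the 9 tested members in converted against monocyte-derived, beside 56.3% of all genes, for 7 in resident against monocyte-derived (59.5%) and for 3 in converted against resident (37.3%). In the last comparison 1 of the 9 (11.1%) had an unadjusted p under 0.05, beside 20.8% of all genes. DESeq2 and limma-voom also called 0 members there, while calling 1364 and 861 of all genes. In edgeR's test for any difference among the 3 groups, 6 of 9 members passed (Slc7a1, Slc7a2, Odc1, Sms, Ass1 and Asl), beside a background of 54.7%. The median absolute log2 change of the 9 was 0.82 and 1.26 in the first pair of comparisons, beside 0.47 and 0.46 over all genes tested. Those comparisons share the monocyte-derived libraries, so they are not independent. Among the groups, the monocyte-derived one was harvested soon after thioglycollate and the tamoxifen diet is given for the converted one; both are bound to the groups and cannot be told apart from them. The same holds for sex: Xist, from the inactive X chromosome, had 710 to 1561 reads in monocyte-derived and 0 to 2 in all other libraries, and Ddx3y, on chromosome Y, had 0 reads in the former and at least 1683 in the latter, so in each comparison with monocyte-derived libraries origin and sex cannot be told apart. Arg2 did not pass the filter on low counts, and Nos2 passed through its monocyte-derived libraries 1 and 3 and converted library 3.

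**Figure D1:**
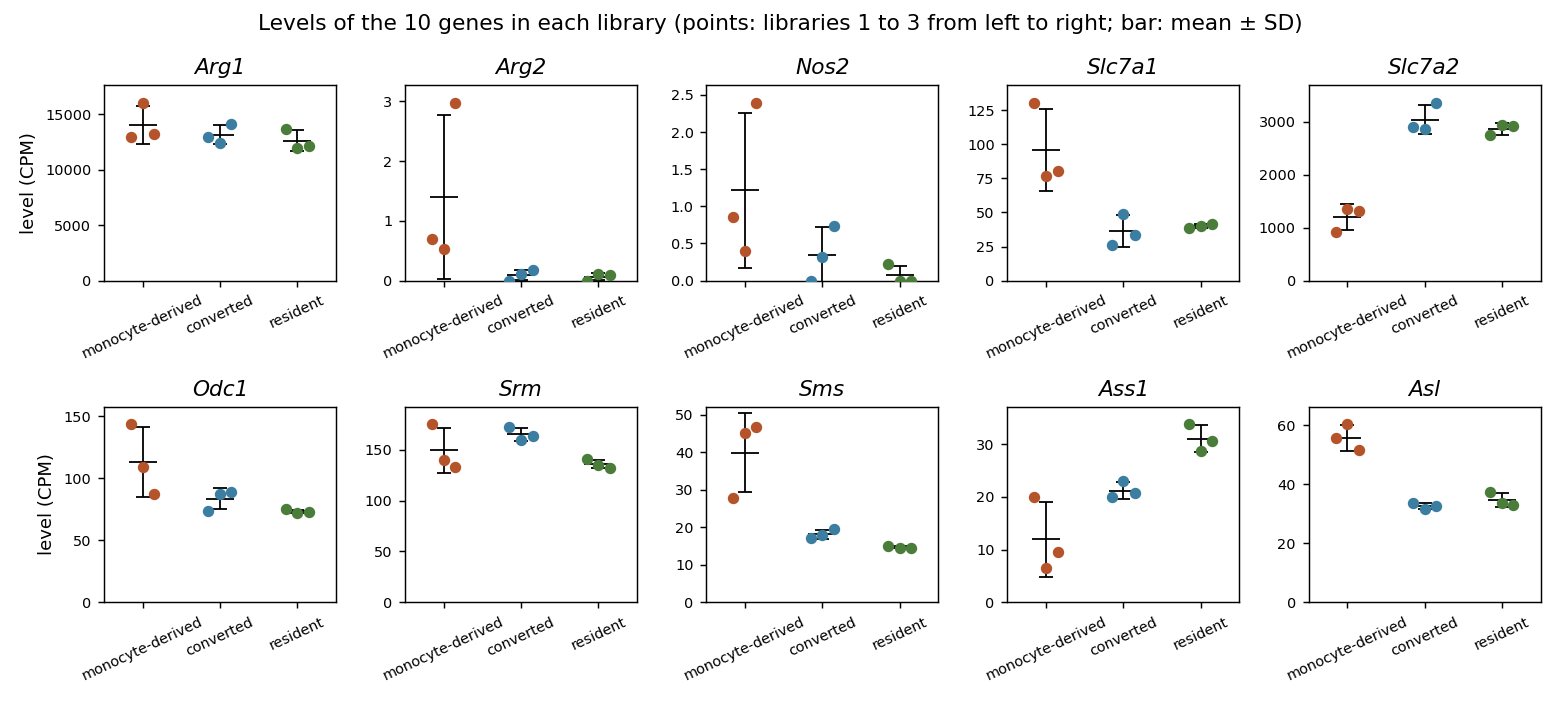
Levels of the 10 genes in CPM (linear axes from 0) in each library of the 3 groups, with points for libraries 1 to 3 from left to right and bars for mean ± SD (n = 3). Arg1 overlaps between all groups, at 11951 to 16017 CPM, Slc7a2 lies higher in all converted and resident libraries than in any monocyte-derived one, and Slc7a1, Sms and Asl lie lower.

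Sequence upstream of the start was at hand for 4 of the 10 members in the RefSeq promoter table (GRCm38.p6). The 250 bases before the start are shown for the 3 of these that changed more than 2-fold, 2 of which fell and 1 of which rose. Capitals mark matches, on either strand, to an E-box (CACGTG), a GC box (GGGCGG) or the 2 STAT-type motifs TTCNNNGAA and TTCNNNNGAA. An amino acid response element (TGATGNAAT) and a cyclic AMP response element (TGACGTCA) were searched too. Strand and position are as in the table: Slc7a1 at chr5:148399905-148400154 on the minus strand, Sms at chrX:157492288-157492537 on the minus strand and Ass1 at chr2:31470020-31470269 on the plus strand.
Slc7a1 promoter: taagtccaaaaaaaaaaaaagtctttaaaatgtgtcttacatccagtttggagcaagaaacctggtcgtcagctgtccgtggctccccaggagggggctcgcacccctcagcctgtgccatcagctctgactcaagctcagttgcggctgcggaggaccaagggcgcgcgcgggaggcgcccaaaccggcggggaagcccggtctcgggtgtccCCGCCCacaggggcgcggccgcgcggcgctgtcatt
Sms promoter: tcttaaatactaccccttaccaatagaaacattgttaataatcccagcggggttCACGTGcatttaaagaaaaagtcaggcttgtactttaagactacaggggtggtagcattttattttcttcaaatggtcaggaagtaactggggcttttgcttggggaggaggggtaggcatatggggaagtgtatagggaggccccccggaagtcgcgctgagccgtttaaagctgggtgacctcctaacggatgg
Ass1 promoter: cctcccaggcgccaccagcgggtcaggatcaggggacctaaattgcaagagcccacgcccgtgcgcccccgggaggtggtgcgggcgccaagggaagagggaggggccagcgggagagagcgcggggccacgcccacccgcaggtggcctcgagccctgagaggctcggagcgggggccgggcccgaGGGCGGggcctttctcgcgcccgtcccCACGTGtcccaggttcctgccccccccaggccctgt
The Slc7a1 window held 1 GC box and the Sms window 1 E-box. The Ass1 window held 1 of each, with its E-box 36 to 31 bases before the RefSeq start. In M21 the Ass1 gene begins at 31470207, inside this window, so these Ass1 matches lie within the gene as M21 places it. Over 32851 promoters of the same length, 6.02% held an E-box and 32.7% a GC box. Neither STAT-type motif, present in 7.02% and 5.85% of promoters, nor the other 2 elements was found in these 3 printed windows. The Ass1 window was 75.6% G or C, the Slc7a1 window 62.4% and the Sms window 47.2%, beside a mean of 53.2% over all promoters. Matches are descriptions of the letters, not of binding. Slc7a1 and Sms each have a second start in the table, whose window is not printed: that of Slc7a1 held 1 match to TTCNNNGAA, 146 to 138 bases before the start, and that of Sms held 4 GC boxes, some overlapping, at 75.2% G or C.

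Arg1, the cytosolic arginase, was among the most abundant transcripts of every library and did not pass the test in any comparison. The gene (ENSMUSG00000019987) lies on GRCm38 chromosome 10, 24915221 to 24927484, and held rank 3 or 4 by read count among all genes, with 1.19% to 1.54% of reads. Its levels were 12926.5, 16017 and 13177.5 CPM in monocyte-derived libraries 1 to 3, 12919, 12403 and 14091 in converted ones and 13681, 11951 and 12155 in resident ones. The groups overlapped, and the single highest library was monocyte-derived library 2. The fold change was 0.936 for converted over monocyte-derived (95% interval 0.779 to 1.12, adjusted p = 0.528 by edgeR) and 0.897 for resident over monocyte-derived (0.747 to 1.08, adjusted p = 0.298 by edgeR). For converted over resident it was 1.04 (0.868 to 1.25, adjusted p = 0.82 by edgeR).

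Arg2, the mitochondrial arginase (chromosome 12, 79130777 to 79156301), was at the edge of detection. It had 13, 9 and 46 reads in the monocyte-derived libraries, 0, 2 and 3 in the converted ones and 0, 2 and 2 in the resident ones. All 3 monocyte-derived libraries were above every other library, and library 3 held most of the reads. Summed over libraries, the monocyte-derived level was 15.02 times the converted one (95% counting interval 6.13 to 47.7) and 19.0 times the resident one (7.11 to 71.9). These intervals cover counting error only and say nothing of the spread between libraries. A library without a read allows up to 0.147 to 0.194 CPM, the level of 3 reads. The last Arg2 exons overlap exons of Vti1b on the opposite strand, and without a stated strand setting reads of the pair cannot be told apart there. Vti1b itself had 1168 to 1956 reads a library and was lower in converted (log2 -0.48 ± 0.11 SE, adjusted p = 0.00437 by edgeR) and resident libraries (-0.37 ± 0.11, adjusted p = 0.0183 by edgeR) than in monocyte-derived ones; its part in the Arg2 reads was not tested. Per kb of exon, the mean Arg1 level was 6302 CPM in monocyte-derived libraries and the mean Arg2 level 0.979.

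Nos2, the other enzyme that consumes arginine here (chromosome 11, 78920787 to 78960254), was as scarce as Arg2. Its reads numbered 16, 7 and 37 in the monocyte-derived group, 0, 6 and 13 in the converted group and 4, 0 and 0 in the resident group. Converted library 3 overlapped the monocyte-derived range, and all resident libraries lay below it. In summed reads the monocyte-derived level was 3.49 times the converted one (counting interval 2.05 to 6.19) and 16.8 times the resident one (6.23 to 63.7). The resident comparison was called (log2 -3.98 ± 1.27 SE, adjusted p = 0.0254 by edgeR) and the converted one was not (-1.80 ± 0.997, adjusted p = 0.161 by edgeR). The call rests on 4 resident reads from 1 library. It ended without monocyte-derived library 3 (adjusted p = 0.0859), without resident library 2 (0.086) or 3 (0.0889), and with no filter on low counts (0.0593), all by edgeR. The other nitric oxide synthases were scarce too, with Nos1 at group means of 0.0332 to 0.0919 CPM and Nos3 at 0.62 to 0.787.

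The transporters changed in opposite directions. Slc7a2, the carrier CAT2 (chromosome 8, 40862396 to 40922308), had 915.6, 1351 and 1320 CPM in monocyte-derived libraries, 2903, 2860 and 3360 in converted libraries and 2742, 2932 and 2928 in resident libraries. Every converted and resident library was higher than every monocyte-derived one. Slc7a2 rose 2.54-fold in converted (95% interval 2.03 to 3.19, adjusted p = 4.51e-05 by edgeR) and 2.40-fold in resident libraries (1.91 to 3.01, adjusted p = 6.91e-05 by edgeR). Converted over resident was 1.06 (0.849 to 1.32, adjusted p = 0.791 by edgeR). By read count it moved from rank 70 to 102 among all genes in monocyte-derived libraries to rank 12 to 20 in the others.

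Slc7a1, the widely expressed carrier CAT1 (chromosome 5, 148327410 to 148399904), went the other way. It had 130.6, 76.8 and 80.3 CPM in the monocyte-derived group, 26.2, 49.2 and 33.3 in the converted group and 38.4, 39.8 and 41.4 in the resident group. All monocyte-derived libraries were above all others, and the converted libraries spread around the resident ones. The gene fell 2.65-fold in converted (log2 -1.41 ± 0.25 SE, adjusted p = 0.00129 by edgeR) and 2.41-fold in resident libraries (-1.27 ± 0.25, adjusted p = 0.00233 by edgeR). Per kb of exon, Slc7a2 exceeded Slc7a1 by 8.85, 22.2 and 20.8 times in the monocyte-derived group, 139.8, 73.4 and 127.6 times in the converted group and 90.1, 93.1 and 89.4 times in the resident group. The ratio of the carriers thus did not overlap between monocyte-derived libraries and the rest, and it was lowest in monocyte-derived library 1. A long noncoding RNA on the opposite strand, Gm26584 (chromosome 8, 40862395 to 40865647), begins inside Slc7a2, ends at the Slc7a2 start and shares exon bases with it. It was named for that overlap. Gm26584 had 18 to 25 reads in the monocyte-derived group, 85 to 164 in the converted group and 109 to 131 in the resident group (log2 2.34 ± 0.31 SE and 2.28 ± 0.31 against monocyte-derived, adjusted p = 0.000151 and 0.000179 by edgeR). Without a stated strand setting its reads cannot be told apart from those of Slc7a2.

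**Figure D2:**
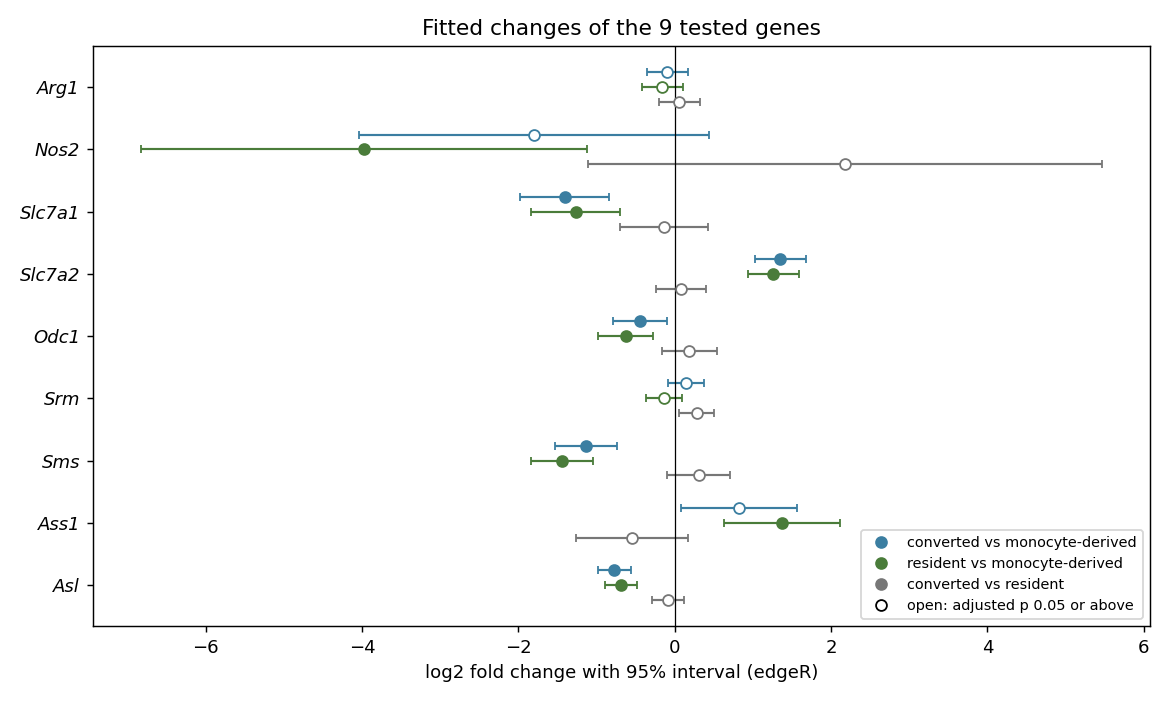
Fitted log2 fold changes (edgeR, x axis) of the 9 tested genes with 95% intervals for the 3 comparisons, filled where the adjusted p was under 0.05. The Slc7a1 and Slc7a2 changes lie on opposite sides of 0, at -1.41 and 1.35 for converted against monocyte-derived, every converted against resident point is open, and the Nos2 intervals are the widest.

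The polyamine enzymes did not move as a unit. Odc1, the entry step (chromosome 12, 17544794 to 17551505), had 143.3, 109.1 and 87.3 CPM in the monocyte-derived group, 73.9, 87.5 and 88.9 in the converted group and 74.8, 72.0 and 73.0 in the resident group. Resident libraries were all below the monocyte-derived ones, while 2 converted libraries overlapped monocyte-derived library 3. Odc1 fell 1.55-fold in resident libraries (log2 -0.63 ± 0.16 SE, adjusted p = 0.00733 by edgeR). In converted libraries it was 1.36-fold lower (-0.44 ± 0.16, adjusted p = 0.0377 by edgeR), a call made in 4 of 15 alternative analyses, whose adjusted p ran from 0.00389 to 0.133. Without monocyte-derived library 1 that value was -0.24 (adjusted p = 0.104 by edgeR), and blocking on replicate number gave an adjusted p of 0.0706.

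Srm, the middle step (chromosome 4, 148591503 to 148594993), had 175.0, 140.1 and 133.3 CPM in the monocyte-derived group, 172.8, 160.1 and 163.2 in the converted group and 140.6, 135.2 and 132.2 in the resident group. It passed in no comparison. Its 3 converted libraries were all above the resident ones, by 1.22-fold (95% interval 1.04 to 1.42, unadjusted p = 0.0201, adjusted p = 0.147 by edgeR). That difference was called without monocyte-derived library 1 (adjusted p = 0.0188) and in a fit of the converted and resident libraries alone (0.0197), both by edgeR, and its adjusted p over 15 alternatives ran up to 0.39. Without monocyte-derived library 1 Srm was also higher in converted than in monocyte-derived libraries (log2 0.27 ± 0.07 SE, adjusted p = 0.00854 by edgeR).

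Sms, the last step, from spermidine to spermine, fell the most of the 3. The gene lies on chromosome X, 157443855 to 157492287, and had 27.7, 45.1 and 46.6 CPM in the monocyte-derived group, 17.0, 17.9 and 19.4 in the converted group and 14.9, 14.6 and 14.4 in the resident group. The groups did not overlap in any of the 3 comparisons, and monocyte-derived library 1 was the lowest of its group. Sms fell 2.20-fold in converted (log2 -1.14 ± 0.18 SE, adjusted p = 0.000485 by edgeR) and 2.72-fold in resident libraries (-1.44 ± 0.18, adjusted p = 0.000116 by edgeR). Converted over resident was 1.24 (0.935 to 1.63, adjusted p = 0.382 by edgeR). Sms is X-linked, and the part of the split by Xist and Ddx3y given above in its change was not tested. Of 413 tested genes on chromosome X, 25.2% were lower in converted and 27.4% in resident libraries than in monocyte-derived ones, with median log2 changes of 0.02 and -0.02. Over all genes tested, 24.9% were lower in each comparison. A processed pseudogene, Sms-ps, had at most 52 reads in a library. Per kb of exon, Srm exceeded Sms by 10.7 to 23.7 times in the monocyte-derived group, 31.6 to 38.2 times in the converted group and 34.4 to 35.5 times in the resident group.

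The enzymes that rebuild arginine from citrulline moved apart. Ass1 (chromosome 2, 31470207 to 31520672) had 19.9, 6.42 and 9.45 CPM in the monocyte-derived group, 19.9, 23.0 and 20.6 in the converted group and 33.7, 28.7 and 30.6 in the resident group. Resident libraries were the highest, and monocyte-derived library 1 lay level with the lowest converted library. Ass1 rose 2.59-fold in resident over monocyte-derived libraries (95% interval 1.55 to 4.32, adjusted p = 0.00645 by edgeR). Converted libraries had 1.77 times the monocyte-derived level (1.06 to 2.95, adjusted p = 0.0614 by edgeR), which did not pass. That comparison turned on monocyte-derived library 1: without it the log2 change was 1.42 ± 0.17 SE in place of 0.82 ± 0.33 (adjusted p = 5.94e-05 by edgeR). It also passed by DESeq2 (adjusted p = 0.0252), by limma-voom (0.0231) and when blocked on replicate number (0.0408), with 0.173 as the highest over 15 alternatives. All converted libraries were below all resident ones, at 0.683 of their level (0.416 to 1.12, adjusted p = 0.374 by edgeR). The latter difference was called without monocyte-derived library 1 (0.0285) and in the fit of the converted and resident libraries alone (0.00433), both by edgeR, and its adjusted p reached 0.669 over 15 alternatives.

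Asl (chromosome 5, 130011258 to 130029247) had 55.6, 60.3 and 51.5 CPM in the monocyte-derived group, 33.7, 31.5 and 32.7 in the converted group and 37.5, 33.7 and 33.1 in the resident group. Both later groups lay below every monocyte-derived library and overlapped each other. Asl fell 1.71-fold in converted (log2 -0.77 ± 0.09 SE, adjusted p = 8.79e-05 by edgeR) and 1.61-fold in resident libraries (-0.68 ± 0.09, adjusted p = 0.000192 by edgeR). Converted over resident was 0.941 (0.815 to 1.09, adjusted p = 0.645 by edgeR). Per kb of exon, Asl stood at 1.40, 4.70 and 2.72 times Ass1 in monocyte-derived libraries, 0.848, 0.685 and 0.792 times in converted and 0.555, 0.585 and 0.54 times in resident ones. Asl thus exceeded Ass1 in all monocyte-derived libraries and was below it in all others. An exact permutation test of such a ratio between 3 and 3 libraries cannot give a two-sided p below 0.1, so none is given.

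**Figure D3:**
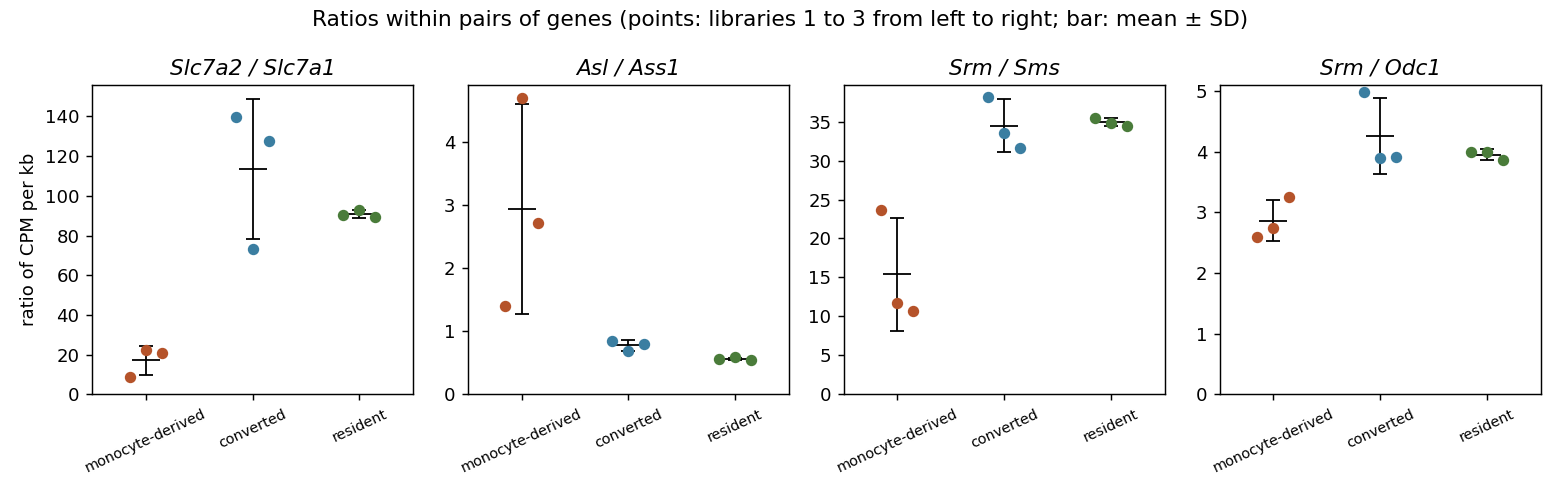
Ratios of CPM per kb of exon within 4 pairs of genes (linear axes from 0) in each library, with points for libraries 1 to 3 and bars for mean ± SD (n = 3). Slc7a2 over Slc7a1 averages 17.3 in the monocyte-derived group, 113.6 in the converted group and 90.9 in the resident group, and Asl over Ass1 goes from 2.94 to 0.775 and 0.56.

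Per kb of exon, the order of the members was the same in converted and resident libraries down to rank 8. Arg1 led in all groups, with means of 6302, 5897 and 5653 CPM per kb in monocyte-derived, converted and resident libraries. Slc7a2 followed at 130.9, 332.9 and 313.9, then Srm at 93.5, 103.4 and 85.1 and Odc1 at 33.3, 24.5 and 21.5. In monocyte-derived libraries Slc7a2 and Srm overlapped, as did Asl with Slc7a1, Slc7a1 with Sms and Sms with Ass1. Ass1 held rank 8 of 10 there, at 4.94 ± 2.93 CPM per kb (SD, n = 3), and rank 5 in converted (8.77) and resident libraries (12.8), where it did not overlap Asl (6.76 and 7.19). Slc7a1 and Sms overlapped in converted libraries (3.14 and 3.01) and not in resident ones (3.46 and 2.44). Arg2 and Nos2 took the last places everywhere.

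**Figure D4:**
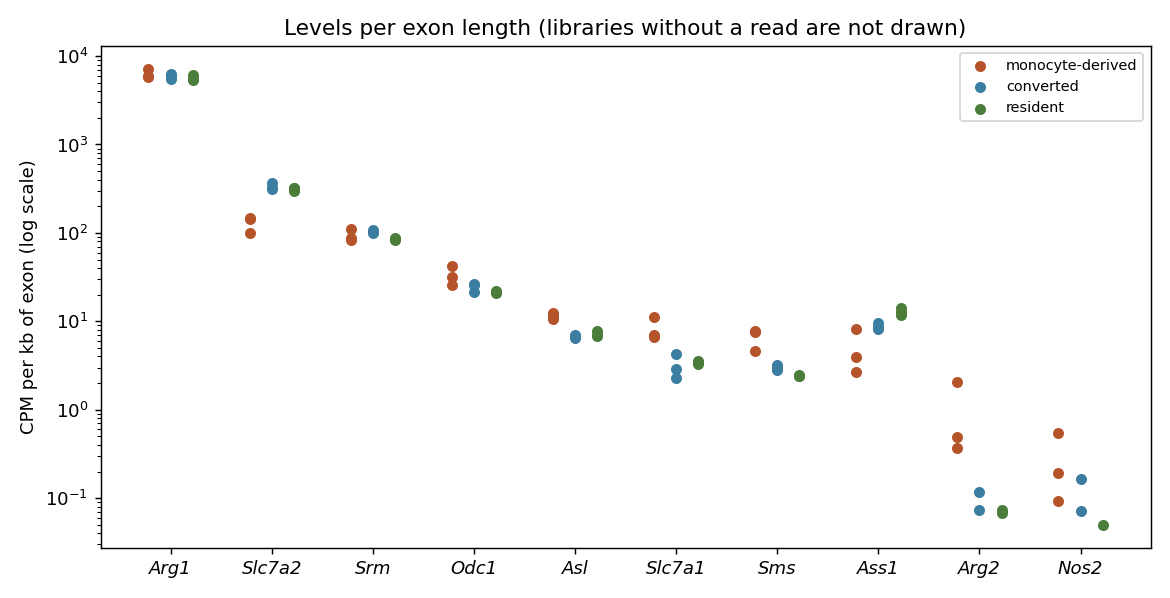
Level per kb of exon (CPM per kb, log axis) of the 10 genes in each library, ordered by the monocyte-derived mean and coloured by group; libraries with no read are left out. Arg1 stands above the rest, with group means of 5653 to 6302 CPM per kb, Ass1 climbs and Sms declines from monocyte-derived to resident libraries, and Arg2 and Nos2 lie lowest.

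The wider pathway was followed in 67 other genes in 5 lists, of which 54 were tested. Against monocyte-derived libraries, 13 were higher and 19 lower in converted (59.3% called, background 50.7%) and 10 were higher and 19 lower in resident libraries (53.7%, background 50.7%). Between converted and resident libraries edgeR called 0 of 54 beside a background of 6.07%; 9 (16.7%) had an unadjusted p under 0.05, beside 20.8% of all genes, DESeq2 called 5 and limma-voom 0. The median log2 change of the 54 was -0.12, -0.06 and 0.02 in the 3 comparisons.

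Of 11 tested amino acid carriers and partners, 3 were higher and 6 lower in both comparisons with monocyte-derived libraries. The share called was 81.8% in each, beside a background of 50.7%. Slc3a2, the heavy chain that pairs with several amino acid exchangers, had 363.2 ± 84.4 CPM in the monocyte-derived group and fell to 81.8 ± 19.3 in the converted group and 102.4 ± 8.74 in the resident group (SD, n = 3; 4.44-fold and 3.55-fold, adjusted p = 2.11e-05 and 5.66e-05 by edgeR). Slc7a8, one of its light chains, fell 7.91-fold and 8.98-fold, and Slc7a5 fell 4.87-fold and 3.97-fold, with 671.9 CPM in monocyte-derived library 1 against 235.7 and 236.8 in libraries 2 and 3. The 2 light chains of the y+L system, which exports arginine, went opposite ways. Slc7a6 fell 2.58-fold and 2.95-fold (adjusted p = 0.00303 and 0.00153 by edgeR), and Slc7a7 rose from 23.8 ± 4.12 CPM to 55.3 ± 4.71 and 52.9 ± 4.01 (SD, n = 3; adjusted p = 4.41e-05 and 6.36e-05 by edgeR). Slc25a15, the mitochondrial ornithine carrier, rose 1.52-fold and 1.45-fold (adjusted p = 0.0117 and 0.0197 by edgeR). Its resident call ended without resident library 2 (0.0524) or 3 (0.0721).

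In the list of the urea cycle and the ornithine, proline and creatine branches, 4 of 12 tested were higher and 3 lower in converted, and 3 higher and 4 lower in resident libraries. The share called was 58.3% in each, beside a background of 50.7%. Glul, glutamine synthetase, rose from 34.2 ± 1.68 CPM to 157.9 ± 31.8 and 159.8 ± 2.93 (SD, n = 3; 4.61-fold and 4.67-fold, adjusted p = 7.84e-07 and 8.61e-07 by edgeR). Aldh4a1, which breaks proline down to glutamate, rose 2.32-fold and 2.28-fold. Pycr1, the last step of mitochondrial proline synthesis, fell from 9.23 ± 6.38 CPM to 0.47 ± 0.176 and 1.38 ± 0.211 (SD, n = 3; adjusted p = 0.000112 and 0.000834 by edgeR). Azin2, an antizyme inhibitor placed in this list, fell 3.52-fold and 3.16-fold.

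Among 17 tested regulators of polyamines 5 were higher and 4 lower in converted, and 3 higher and 4 lower in resident libraries. The shares called were 52.9% and 41.2%, beside a background of 50.7% in each. Smox, spermine oxidase, fell from 18.5 ± 1.89 CPM to 2.53 ± 1.14 and 2.40 ± 0.488 (SD, n = 3; 7.26-fold and 7.71-fold, adjusted p = 2.64e-05 and 2.25e-05 by edgeR). Azin1, the antizyme inhibitor that protects ornithine decarboxylase, fell 1.73-fold and 2.17-fold. Sat1, the X-linked spermidine and spermine acetyltransferase, fell 1.98-fold in converted libraries (adjusted p = 0.0144 by edgeR) and had 263.6 ± 21.5 CPM in resident against 428.4 ± 173 in monocyte-derived ones (adjusted p = 0.0585 by edgeR). Its converted call ended without monocyte-derived library 2 (0.0561), without converted library 2 (0.0564) and with no filter on low counts (0.0875). The resident comparison passed without monocyte-derived library 1 (log2 -1.004, adjusted p = 7.26e-05 by edgeR) and by DESeq2 (0.025). Amd1, S-adenosylmethionine decarboxylase, was 1.34-fold higher in converted libraries (adjusted p = 0.0148 by edgeR; 0.0536 without converted library 3) and at 19.3 ± 0.828 CPM in resident against 19.5 ± 2.55 in monocyte-derived ones (SD, n = 3). Mtap, which salvages the methylthioadenosine made by polyamine synthesis, rose 1.5-fold and 1.33-fold. Sat2, at 1.49 and 1.55 CPM against 0.328, had fitted changes of 4.44-fold and 4.63-fold. Its reads numbered 4 to 7 in monocyte-derived libraries and 16 to 40 in the others. Sat2 passed the filter on low counts through the converted and resident libraries alone, so its calls are no support for a rise. Oaz1, the antizyme, had 399.7 ± 35.4, 360.05 ± 24.4 and 380.5 ± 10.4 CPM (SD, n = 3; adjusted p = 0.175 and 0.524 by edgeR).

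Hypusine, a residue made from spermidine, is carried by the translation factor Eif5a. All 4 genes of the hypusination list were lower in converted and 3 of 4 in resident libraries. The background of lower genes was 24.9% in each comparison. Eif5a fell from 2270 ± 174 CPM to 1181 ± 11.8 and 1120 ± 3.87 (SD, n = 3; 1.92-fold and 2.03-fold, adjusted p = 9.41e-06 and 5.8e-06 by edgeR). Dhps, deoxyhypusine synthase, fell 2.15-fold and 2.1-fold (adjusted p = 5.89e-05 and 7.28e-05 by edgeR). Eif5a2 fell 4.01-fold in converted libraries and had an adjusted p of 0.0587 in resident ones by edgeR. The latter passed without monocyte-derived library 2 (0.0127) or resident library 3 (0.0314). In the nitric oxide list 1 of 10 tested was higher and 2 were lower in both comparisons. The share called was 30% in each, beside a background of 50.7%. Gch1, the first enzyme of the cofactor tetrahydrobiopterin, had 44.2 ± 3.86, 46.8 ± 4.59 and 47.3 ± 3.74 CPM, and Ddah2, which clears a natural synthase inhibitor, had 6.52 ± 1.64, 6.67 ± 1.18 and 7.28 ± 1.2 (SD, n = 3). Pts, the next cofactor enzyme, rose 1.85-fold and 2.00-fold. Nostrin fell 1.69-fold and 1.70-fold, and Prmt1, an arginine methyltransferase, fell 1.39-fold and 1.5-fold.

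**Figure D5:**
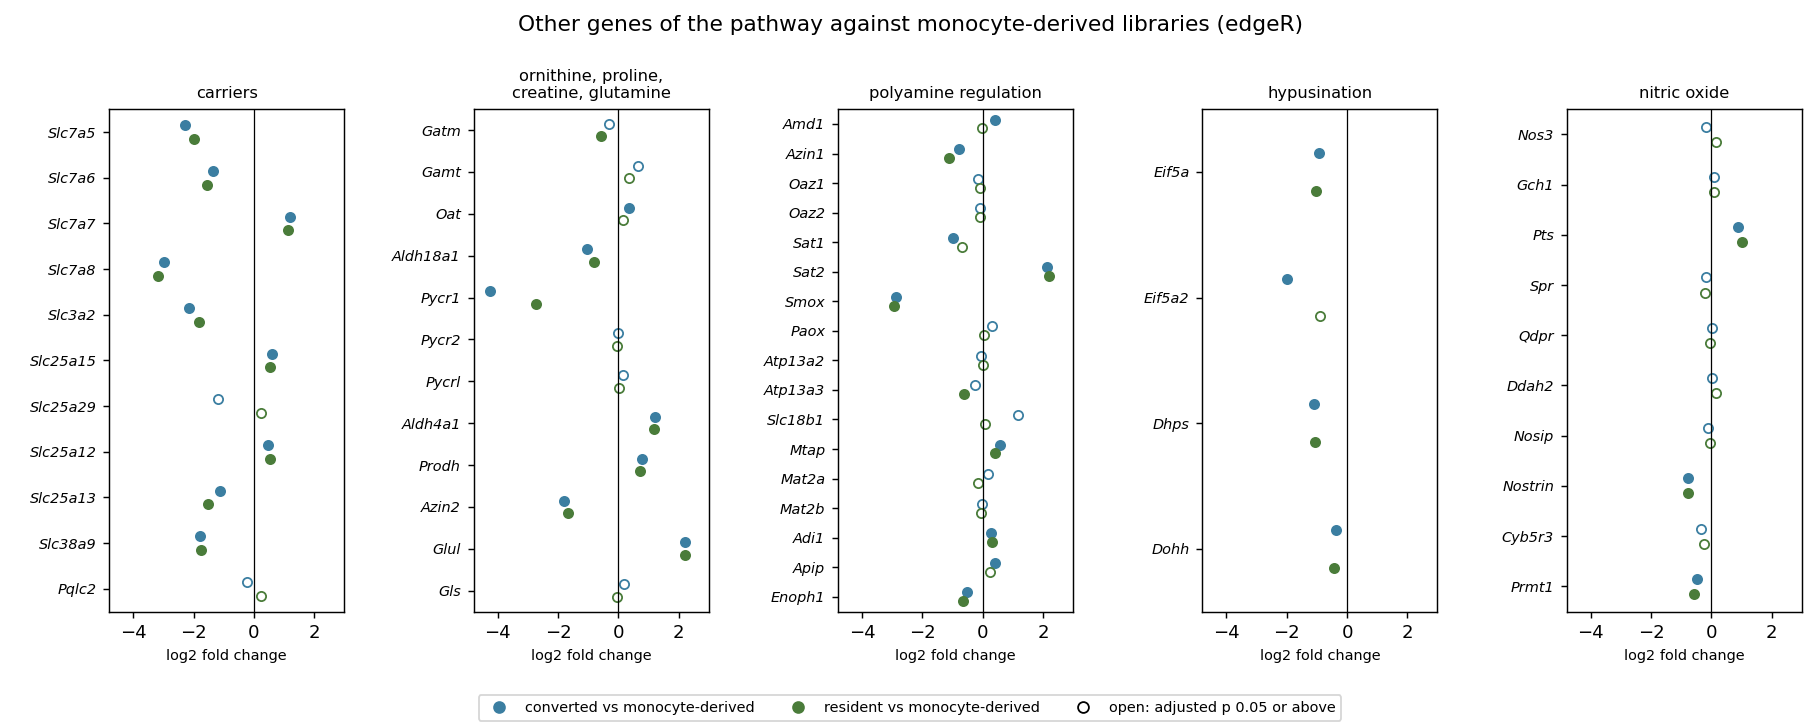
Log2 fold changes (edgeR, x axes) of the 54 other tested pathway genes against monocyte-derived libraries, by list, with blue for converted, green for resident and open points where the adjusted p was 0.05 or above. Slc7a7 and Glul lie to the right and Slc3a2, Slc7a8, Pycr1 and Smox to the left in both comparisons, and the hypusination genes all lie left of 0.

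Genes with the most similar pattern over the 9 libraries were sought for the 3 members with the largest changes, among 7353 or 7354 protein-coding genes with at least 20 CPM in 1 group. For Slc7a1 they were Yars (r = 0.993) and Lmo4 (r = 0.988), for Sms they were Wdr1 (r = 0.992) and St8sia4 (r = 0.99), and for Nos2 they were Celf1 (r = 0.953) and Myo9a (r = 0.931). These Pearson coefficients of log2 CPM describe libraries that fall into groups and share their depth and scaling. Many genes reached such values: 79 had r above 0.95 with Slc7a1, 229 with Sms and 1 with Nos2. The Nos2 coefficients rest on 0 to 37 reads a library, with 3 libraries at 0 and a pseudocount of 0.5.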

How the data were processed

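The submitters' processing notes name TopHat2 2.1.0, HTSeq without a version, and GRCm38. Neither they nor the labels state which annotation was used, whether counting used strand, or how multiply aligned reads were treated. The deposited files hold counts of reads per Ensembl gene, not normalized by the authors. Symbols came from GENCODE M21, which matched 47224 of 47729 identifiers and all 10 members. Library sizes exclude 5 summary lines (no gene, 4.02% to 5.66% of reads; ambiguous, 4.47% to 4.68%).

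The test was edgeR 4.0.16 under R 4.3.3 with limma 3.58.1: filterByExpr (minimum count 10, minimum total 15), TMM, and quasi-likelihood F-tests with robust dispersions, all 9 libraries fitted together (6 residual degrees of freedom), Benjamini-Hochberg adjusted over 13223 genes. SEs are the log2 change divided by the square root of F. The fit was tested on simulated data. Levels per kb use the union of M21 exons; fold intervals are 95% and counting intervals exact binomial. Alternatives were DESeq2 1.42.0, limma-voom, DESeq2 size factors, no filter, 2-group fits, a replicate block and each library left out.

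The members and lists were chosen with earlier results of these data known. All members are named. Of the other lists, the text names 10 chosen genes and, per list, comparison and direction, up to 2 called genes with the largest change. Gm26584, Vti1b, Slc7a6, Nos1, Nos3 and the untested genes were named after their values were seen. A gene of the nitric oxide list is not reported here and is left out of its counts.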

Additional observations from a re-analysis of the deposited data

How the results depend on the processing

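Of 403 values of the 27 tested member and comparison pairs under alternative analyses, 377 kept their direction and their side of the threshold, 15 lost a call (Odc1 in converted and Nos2 in resident against monocyte-derived libraries), 9 gained one (Srm and Ass1) and 2 changed sign without passing. The sign changes arose when 1 library was left out: Arg1 in converted against monocyte-derived libraries ran from -0.151 to 0.012, positive without monocyte-derived library 2, and Slc7a1 in converted against resident libraries from -0.421 to 0.0517, positive without converted library 1. The calls of Slc7a1, Slc7a2, Sms and Asl against monocyte-derived libraries, and of Odc1 and Ass1 in resident against monocyte-derived ones, held under all 15 alternatives. Arg2 entered the test with no filter on low counts (log2 -3.82 and -4.16 in converted and resident against monocyte-derived libraries, adjusted p = 0.00269 and 0.00173 by edgeR). In 7 fits that left out 1 library it passed the filter through its monocyte-derived reads alone, so its calls there had to follow. They are not among the 403 values. In the wider pathway, 3 values that did not pass changed sign with 1 library left out. Amd1 in resident libraries ran from -0.117 to 0.0872 and was 0.00526 with no filter on low counts. Oaz1 in resident libraries ran from -0.119 to 0.0185, and Ddah2 in converted libraries from -0.0841 to 0.257.

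The number of genes called between converted and resident libraries depended on the analysis. It was 803 by edgeR (240 of them higher in converted libraries), 1364 by DESeq2 (527 higher), 530 with the replicate number as a block (115 higher) and 2067 in a fit of those 6 libraries alone (900 higher). It ran from 245 to 1628 when 1 library was left out. That was 1628 without monocyte-derived library 1, 361, 535 and 354 without converted library 1, 2 and 3, and 295, 400 and 245 without resident library 1, 2 and 3. Members called there numbered 0, with 0 to 2 when 1 library was left out and 2 (Srm and Ass1) in the fit of those 6 libraries. The cause was not tested. Leaving out 1 library gave 5886 to 6845 genes and 5 to 6 members called in converted against monocyte-derived libraries. In resident against monocyte-derived libraries it gave 5680 to 6875 genes and 6 to 8 members. Where Arg2 passed the filter, its calls, which had to follow, are included in these member counts.

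Deviations of libraries with the same number correlated across groups at -0.221 to 0.188, highest for converted and resident library 1. For libraries with different numbers the correlations were -0.168 to 0.197. With 3 libraries in a group these values cannot decide whether the numbers pair the libraries. The replicate block gave 6276 and 6339 genes called against monocyte-derived libraries in place of 6703 and 6698. Depth limits Arg2 and Nos2, whose levels rest on at most 46 reads in a library.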

Other observations

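Of the 67 other pathway genes, 13 were too low to test. Among them, Otc, the urea cycle enzyme that makes citrulline from ornithine, Ddah1 and the guanylate cyclase subunits Gucy1a2 and Gucy1b1, receptors of nitric oxide, had no read in any of the 9 libraries. Cps1, which starts the urea cycle in liver, had 2 reads, both in converted library 1. These 4 genes at 0 reads are each limited to 0.147 to 0.194 CPM in a library, the level of 3 reads, and the limit covers counting error only. Slc7a3, a further cationic amino acid carrier, had 2.67, 1.21 and 0.388 CPM in monocyte-derived libraries and at most 0.22 in any other library.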
